A study of Homo sapiens with 34 samples.

Results

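The genes described here are 8 of the 20255 genes in the expression table: HNF4A, FOXA2, APOA1, APOA2, APOB, TTR, AFP and ALB. They were chosen by name, as genes of the visceral endoderm, yolk sac and liver, by a rule that uses no measured value. Earlier results of these data were known when the choice was made. HNF4A and FOXA2 encode transcription factors of the cell nucleus, so only the other 6 genes encode secreted proteins. All 8 had a row in the table and all passed the filter for testing, for which 3 or more samples had to reach a value of 10.

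RNA sequencing covered H1 cells, a line of human embryonic stem cells, during a haematopoietic differentiation without added haematopoietic cytokines. The 34 samples were 1 of undifferentiated H1 cells, which had no treatment, 3 of EBs (embryoid bodies) at day 0, labelled BMP4+hVEGF, 3 each of unsorted cells at days 2 and 4, and 3 each of CD43- and CD43+ cells at days 6, 9, 12 and 16, all of them labelled hVEGF. CD43 (SPN) is a surface glycoprotein of blood cells. At day 16 the sort also used CD45 (PTPRC), and the CD43-CD45- and CD43+/CD45+ cells are called CD43- and CD43+ cells here. Mesoderm was started with BMP4 and VEGF, and later medium held VEGF as the only growth factor. All samples came from 1 cell line, so the replicates measure the spread between differentiations or samples of H1 cells and not between lines.

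Visceral endoderm and yolk sac endoderm lie beside the first blood islands of the embryo. They take up nutrients and secrete plasma proteins and lipoproteins before the liver takes over that task. FOXA2 opens chromatin and acts early in endoderm, HNF4A is a nuclear receptor that activates apolipoprotein and other plasma protein genes, and AFP is the main fetal plasma protein, which ALB replaces as the liver matures.

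The values are GC-normalised tag counts, called values below. The 34 samples held the same set of values in another order, with a median of 197 and a highest value of 90700, so depth cannot be read from them and all errors come from the spread of the replicates. A gene was called higher or lower at a Benjamini-Hochberg adjusted p below 0.05 in limma, over all 19788 genes tested, together with a fold change above 4. Fold changes are on the log2(value + 1) scale, which understates the change of low genes. In these bulk samples, fewer cells of a type and less RNA per cell cannot be told apart.

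Libraries were checked before the comparisons. At day 6, SPN was 5979 to 8780 in CD43+ samples and 19 to 49 in CD43- samples, and no sorted CD43+ sample overlapped with a CD43- sample at any day. Of the 10 blood markers, 9 or 10 were called higher in CD43+ cells on each of the 4 days. At day 16 HBZ went the other way, with 632, 416 and 1448 in CD43- and 163, 158 and 302 in CD43+ samples. Late CD43- samples also held other blood markers. PTPRC was 4, 197 and 371 in them at day 12. ITGA2B was 1332, 3984 and 1930 at day 16, against 10436, 12840 and 6140 in CD43+ samples. The third replicate of day 9 CD43+ cells stood apart. In it, 5 of the 8 genes and 13 of 21 tested genes of a list of other liver and yolk sac secreted proteins were at least 4-fold above both other replicates, against 0.672% of all genes tested, and the day 9 CD43 comparison of the 8 genes and of the other secreted protein genes is therefore given with and without it. No other replicate had more than 1 of the 8 genes so far above its group. For the other secreted protein genes this held for 4 of 21 in the first replicate of day 9 CD43- cells, against 0.222% of all genes, and for 3 of 21 in the first of day 6 CD43+ cells, against 0.379%. The latter was the highest of its group for 18 of the 24 genes of that list with a row in the table.

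AFP and ALB are neighbours, with 9726 bases between the genes, and APOA2 lies on another chromosome. AFP spans chr4:73431138-73456174 and ALB chr4:73397114-73421412, both on the plus strand of GRCh38. APOA2 spans chr1:161222292-161223631 on the minus strand. The 250 bases before a RefSeq start of each of these 3 genes are shown because the 3 genes followed different courses in the same cells, as described below. They come from RefSeq (GRCh38.p14), whose table matched 4 of the 8 genes: AFP, ALB, APOA2 and HNF4A. The windows are chr4:73435971-73436220 for AFP and chr4:73404037-73404286 for ALB on the plus strand, and chr1:161223629-161223878 for APOA2 on the minus strand. The RefSeq starts are 73436221 for AFP, 73404287 for ALB and 161223628 for APOA2, each inside the gene span of the deposited table given above, so the windows of AFP and ALB lie within those spans and not before them. Each is printed 5′ to 3′ on the strand of its gene, and capitals mark matches, on either strand, to the motifs listed next.
AFP: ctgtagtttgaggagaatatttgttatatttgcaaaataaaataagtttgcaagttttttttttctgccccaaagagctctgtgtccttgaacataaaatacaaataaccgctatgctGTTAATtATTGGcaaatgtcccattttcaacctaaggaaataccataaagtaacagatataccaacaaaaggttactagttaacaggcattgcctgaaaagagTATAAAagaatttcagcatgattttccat
ALB: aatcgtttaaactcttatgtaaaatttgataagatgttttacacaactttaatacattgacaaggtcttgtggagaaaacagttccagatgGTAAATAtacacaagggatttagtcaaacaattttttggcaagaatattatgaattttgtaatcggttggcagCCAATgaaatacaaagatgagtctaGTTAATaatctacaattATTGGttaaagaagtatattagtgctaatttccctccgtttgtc
APOA2: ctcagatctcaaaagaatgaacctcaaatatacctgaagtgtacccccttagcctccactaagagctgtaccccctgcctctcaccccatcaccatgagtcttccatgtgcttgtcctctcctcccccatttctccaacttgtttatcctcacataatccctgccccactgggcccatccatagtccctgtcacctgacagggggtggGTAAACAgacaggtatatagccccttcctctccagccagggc

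The motifs were searched on both strands. The TATA box, as TATAAA, was held by 10.7% of all 35116 promoter windows of the same length. The CCAAT box was held by 32.0%, and the motif GTTAAT by 6.23%. The core of the sites of FOXA factors was searched in 2 spellings, of which 2.98% of windows held TGTTTAC and 2.39% held TATTTAC. The HNF4 motif CAAAGTCCA was held by 0.325% and AGATAA, read by GATA factors, by 9.17%. The AFP window held the TATA box 24 to 29 bases before the start, GTTAAT at 127 to 132 bases and a CCAAT box on the other strand at 121 to 125 bases. The ALB window held GTTAAT at 56 to 61 bases, a CCAAT box at 82 to 86 bases and another on the other strand at 40 to 44 bases, and the second FOXA spelling on the other strand at 153 to 159 bases. The APOA2 window held 1 match, the first FOXA spelling on the other strand, 36 to 42 bases before the start. HNF4A has 2 starts in the table. The window of its upstream start held the GATA motif and a CCAAT box, and that of the downstream start held GTTAAT 2 times. No match overlapped another. These matches describe letters and were not tested as binding sites.

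Across the time course, HNF4A, FOXA2, APOA1 and APOB had their highest mean in day 6 CD43- cells, none of them apart from the next population in order, and APOA2, AFP and TTR in day 16 CD43- cells, of which APOA2 did not separate from day 6. Before the CD43 sort, HNF4A and APOA1 rose from day 2 to day 4. At day 6, 7 of the 8 genes were called lower in CD43+ cells. HNF4A and FOXA2 had lower values at day 16 than in any day 6 CD43- sample. ALB stayed low nearly throughout and did not follow the other genes.

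**Figure D1:**
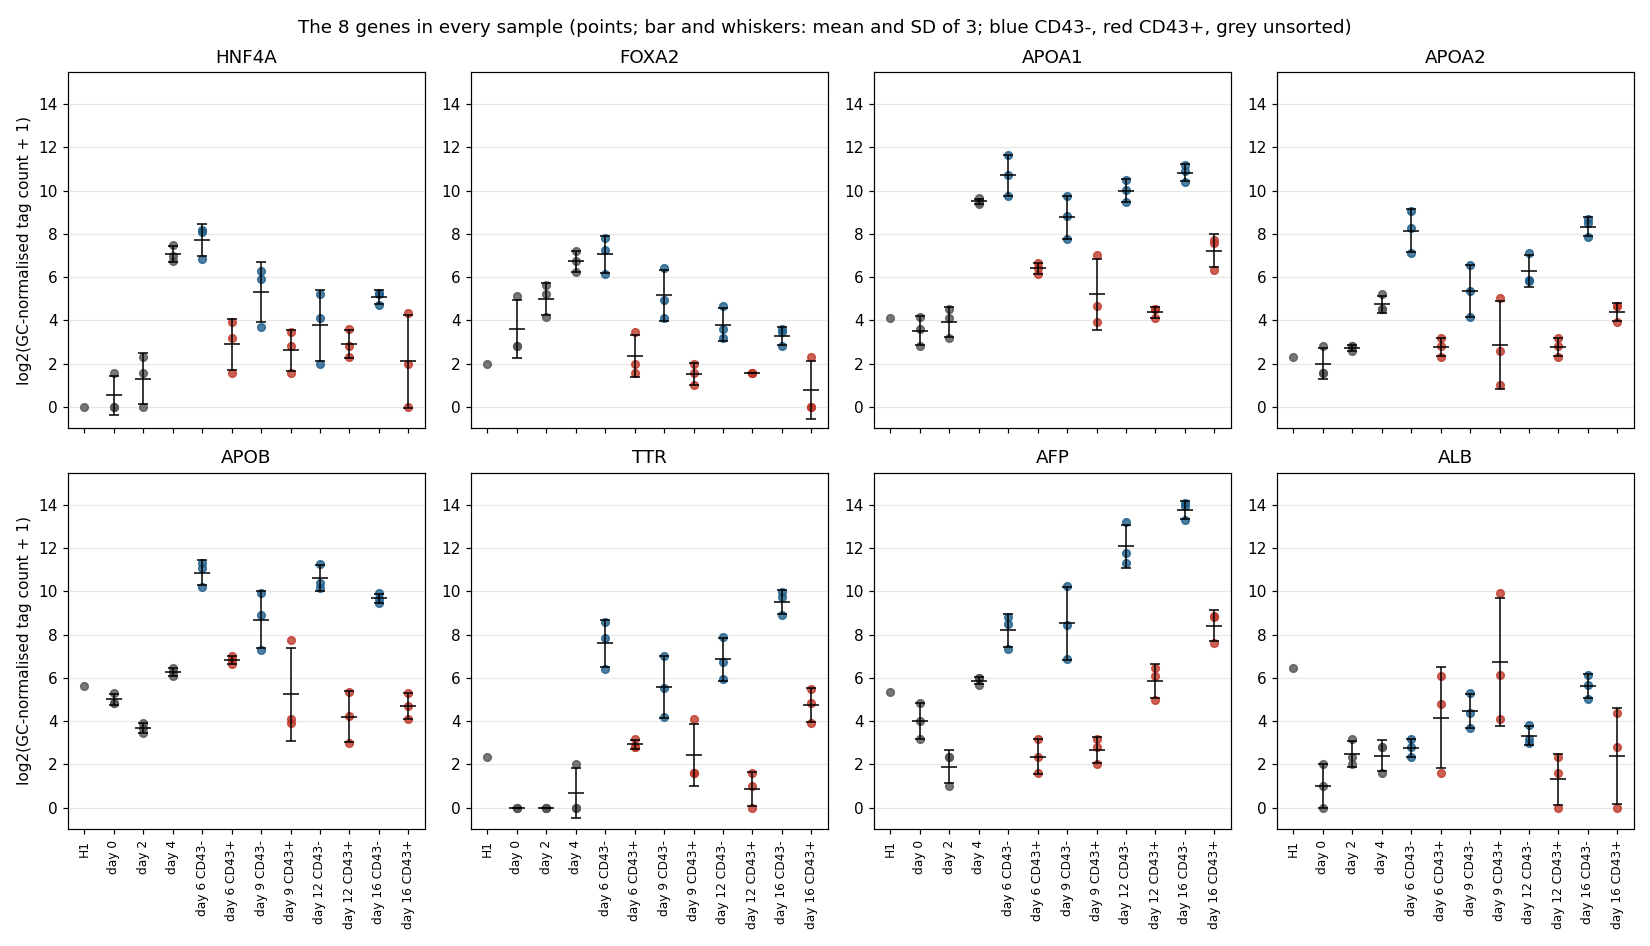
Values of the 8 genes in each of the 34 samples, as log2(value + 1), by population (x axis, 12 populations). Points are samples (grey unsorted, blue CD43-, red CD43+), and bars with whiskers are the mean and SD of 3 replicates. From day 6 the blue points of 7 genes lie mostly above the red ones, AFP climbs in CD43- cells to between 10084 and 17368 at day 16, and ALB shows 1 high red point, 984, at day 9.

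HNF4A (ENSG00000101076, chr20:44355700-44434596, plus strand) was at 0 in undifferentiated H1 cells, at 2, 0 and 0 at day 0 and at 4, 2 and 0 at day 2. At day 4 its values were 126, 178 and 108. The groups of days 2 and 4 did not overlap, and the rise was called (log2 fold change 5.78, SE 0.896, adjusted p = 9.57e-06, limma).

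HNF4A differed between the sorted populations. Day 6 CD43- cells held 114, 274 and 286, and day 6 CD43+ cells 8, 2 and 14. CD43- values were then 78, 60 and 12 at day 9, 36, 16 and 3 at day 12 and 36, 25 and 38 at day 16. CD43+ cells never exceeded 19. The highest means, 225 in CD43- cells of day 6 and 137 at day 4, did not separate from each other, and both groups lay above all samples of every other population.

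FOXA2 (ENSG00000125798, chr20:22581005-22585455, minus strand) was present earlier than HNF4A. Its value was 3 in H1 cells, 6, 6 and 34 at day 0, 36, 48 and 17 at day 2 and 106, 146 and 75 at day 4. The day 4 values lay above the day 2 values, but the change was not called (log2 fold change 1.73, SE 0.688, adjusted p = 0.0502, limma). CD43- cells held 69, 150 and 223 at day 6, 86, 30 and 16 at day 9, 24, 8 and 11 at day 12 and 11, 6 and 10 at day 16. In CD43+ cells FOXA2 was 10, 3 and 2 at day 6 and at most 4 later. The non-coding RNA gene LINC00261, 2363 bases from FOXA2, averaged 89.3 at day 4, 140 in CD43- and 6.0 in CD43+ cells of day 6, and 18.0 in CD43- cells of day 16.

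From day 4 to day 6, both factor genes were called lower in the CD43+ cells than in the unsorted cells, HNF4A with a log2 fold change of -4.19 (SE 0.896) and FOXA2 of -4.38 (SE 0.688). Neither was called changed between day 4 and day 6 CD43- cells. All changes of day 6 CD43+ or CD43- cells against unsorted day 4 cells compare a sorted with an unsorted population.

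Of 19 measured genes of a list of other endoderm transcription factors, 4 were called lower and 1 higher in CD43+ than in CD43- cells at day 6, 9 and 1 at day 9, 8 and 3 at day 12 and 6 and 2 at day 16. The shares of all genes called lower on the 4 days were 7.85%, 12.8%, 14.4% and 13.6%, and of those called higher 4.68%, 8.65%, 11.8% and 12.2%. Over the list the median was a log2 fold change of -0.49 at day 6, and over all genes tested 0.14. FOXA1 (log2 fold change -3.00), SOX17 (-2.77) and NR5A2 (-2.77) were among those called lower at day 6. SOX17 marks endoderm and also haemogenic endothelium, and was 3750, 2183 and 798 in replicates 1 to 3 of day 6 CD43- cells. GATA6 (-6.76) and GATA4 (-6.28) had the largest falls of the list at day 12, and both genes are also used by heart and mesenchymal cells. CEBPA, which is used by liver and by myeloid cells, was called higher in CD43+ cells from day 9 on, with 3.15 at day 9, 2.91 at day 12 and 3.25 at day 16. From day 4 to day 6 in CD43- cells, NR5A2, a nuclear receptor of endoderm, rose (4.25), and EOMES (-4.63), FOXA3 (-2.92) and MIXL1 (-2.83) fell. NR5A2 was 234, 94 and 22 in replicates 1 to 3 of day 6 CD43- cells, in the order of the endothelial marker CDH5 (25876, 10844 and 5254). SOX17 had the same order. Of the 19 listed factors, replicate 1 was highest for 5 and replicate 3 for 8. Replicate 1 was lowest for 7 of the 8 genes. Which cells held NR5A2 or SOX17 was not tested.

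APOA1 (ENSG00000118137, chr11:116835751-116837950, minus strand) encodes the main protein of high-density lipoprotein. It was 16 in H1 cells, 6, 17 and 11 at day 0 and 8, 22 and 16 at day 2. At day 4 it was 714, 797 and 674, a called rise (log2 fold change 5.58, SE 0.587, adjusted p = 1.98e-08, limma) with 3 close replicates. CD43- cells held 868, 1696 and 3204 at day 6, 862, 448 and 215 at day 9, 1040, 1464 and 706 at day 12 and 2335, 1351 and 1896 at day 16. The 5 populations with the highest means, CD43- cells of all 4 days and day 4, did not separate from their neighbours in that order, and the lowest of them, day 9, lay above all CD43+ populations. CD43+ cells held 70, 85 and 99 at day 6, 14, 24 and 131 at day 9, 16, 22 and 22 at day 12 and 190, 213 and 80 at day 16.

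APOA2 (ENSG00000158874), the second protein of high-density lipoprotein, was between 2 and 6 up to day 2 and 22, 36 and 22 at day 4. CD43- cells held 136, 310 and 540 at day 6, 92, 40 and 17 at day 9, 56, 138 and 58 at day 12 and 406, 233 and 358 at day 16. This course of rise, fall and rise was called in 3 of its steps: day 4 to day 6 (log2 fold change 3.40, SE 0.681, adjusted p = 0.000216), day 6 to day 9 (-2.80, SE 0.681, adjusted p = 0.0124) and day 12 to day 16 (2.06, SE 0.681, adjusted p = 0.0151, all by limma). The fall to day 9 was not called without the third replicate of day 6 or of day 9 CD43- cells (-2.20 at the smallest). The rise to day 16 was not called without the first or the third replicate of either population (1.84 at the smallest), or with 10 added to each value in place of 1 (1.94). CD43+ cells held 6, 4 and 8 at day 6, 1, 5 and 32 at day 9, 4, 6 and 8 at day 12 and 24, 24 and 14 at day 16.

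APOB (ENSG00000084674, chr2:21001429-21044073, minus strand) encodes the structural protein of low-density and very-low-density lipoprotein. Its largest called rise came 1 step later than that of APOA1. It was 66, 88 and 76 at day 4 and 1180, 2192 and 2561 in day 6 CD43- cells, groups far apart (log2 fold change 4.61, SE 0.685, adjusted p = 5.46e-06, limma). CD43- cells then held 959, 473 and 154 at day 9, 1340, 2494 and 1160 at day 12 and 807, 712 and 960 at day 16. CD43+ cells held 130, 99 and 112 at day 6, 16, 14 and 212 at day 9, 18, 7 and 40 at day 12 and 25, 38 and 16 at day 16. In day 6 CD43+ cells APOB thus lay just above its day 4 values, while HNF4A and FOXA2 lay far below theirs.

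APOB is loaded with lipid by MTTP, the microsomal triglyceride transfer protein. MTTP was 25, 25 and 26 at day 4, 64, 186 and 378 in CD43- cells of day 6 and 4, 8 and 4 in the matching CD43+ cells. Its rise from day 4 (log2 fold change 2.66) and its deficit in CD43+ cells at day 6 (-4.77) were both called. MTTP is 1 of 15 genes of a list of lipoprotein assembly and uptake, of which 4 were called lower and 0 higher in CD43+ cells at day 6, 4 and 2 at day 9, 4 and 1 at day 12 and 3 and 1 at day 16. These counts stand beside the shares of all genes called on those days, given above for the transcription factors. The others called lower at day 6 were the uptake receptors LRP2 (-3.24), LRP1 (-2.43) and CUBN (-2.24). LIPC, hepatic lipase, was called higher in CD43+ cells at days 9, 12 and 16, with 183, 243 and 88 in day 16 CD43+ cells against 20, 28 and 16 in CD43- cells. AMN, the partner of CUBN in the uptake complex, had the largest called rise of the list from day 4 to day 6 in CD43- cells (3.95).

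APOA4 and APOC3 lie 12445 and 2679 bases from APOA1 and are lipoprotein genes of the same cluster, but their high values came later. At day 4, when APOA1 averaged 728, APOA4 averaged 4.0 and APOC3 1.33. In day 6 CD43- cells the means of APOA4 and APOC3 were 11.3 and 5.0, and in day 16 CD43- cells 2779 and 646. The 3 samples of the latter held APOA4 at 3540, 1917 and 2880 and APOC3 at 806, 476 and 655, with the second replicate lowest, as it was for APOA1.

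TTR (ENSG00000118271, chr18:31591726-31599021, plus strand) carries thyroid hormone and, with RBP4, retinol. It was listed at 0 in all 6 samples of days 0 and 2, at 0, 3 and 0 at day 4 and at 4 in H1 cells. CD43- cells held 85, 227 and 380 at day 6, a called rise over day 4 (log2 fold change 6.94, SE 0.714, adjusted p = 2.36e-08, limma), whose size depends on the added 1 because day 4 was near 0. They held 128, 46 and 17 at day 9, 107, 237 and 60 at day 12 and 993, 473 and 844 at day 16. Day 16 lay above all other populations and was called above day 12 (2.66, SE 0.714, adjusted p = 0.00349, limma). CD43+ cells held 6, 6 and 8 at day 6, 2, 2 and 16 at day 9, 1, 2 and 0 at day 12 and 44, 28 and 14 at day 16. RBP4, the partner of TTR in plasma, was 8, 0 and 8 at day 4, and in CD43- cells 97, 215 and 196 at day 6 and 722, 449 and 672 at day 16.

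AFP (ENSG00000081051) was 40 in H1 cells, 15, 8 and 28 at day 0, 4, 4 and 1 at day 2 and 50, 62 and 62 at day 4. The fall from day 0 to day 2, where 3.48% of all genes were called lower, was called (log2 fold change -2.13, SE 0.648, adjusted p = 0.0110, limma), as was the rise from day 2 to day 4 (3.99, SE 0.648, adjusted p = 1.78e-05, limma). The fall was not called without the third replicate of day 2 (-1.69) or the third of day 0, or with 10 added in place of 1.

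In CD43- cells AFP was 162, 354 and 445 at day 6 and 1228, 347 and 116 at day 9. It was 3490, 9499 and 2522 at day 12 and 17368, 10084 and 15868 at day 16. The groups of days 6 and 9 overlapped, and those of days 9, 12 and 16 lay above one another without overlap. The step from day 9 to day 12 was called (3.57, SE 0.648, adjusted p = 0.000118, limma). From day 12 to day 16 the estimate of 1.68 (SE 0.648, adjusted p = 0.0353) stayed under the 4-fold limit.

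AFP in CD43+ cells was 2, 4 and 8 at day 6, 8, 3 and 6 at day 9, 30, 68 and 88 at day 12 and 462, 446 and 193 at day 16. These rises were called from day 9 to day 12 (3.19, SE 0.648, with 8.45% of all genes called higher) and from day 12 to day 16 (2.57, SE 0.648). The mean in CD43+ cells was 1.46% of that in CD43- cells at day 6, 1.01% at day 9, 1.20% at day 12 and 2.54% at day 16. AFP thus rose in both sorted populations, and the change of the CD43 difference between neighbouring days was not called, with estimates from -0.38 to 0.89 (SE 0.916).

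ALB (ENSG00000163631) was 88 in H1 cells and between 0 and 8 at days 0, 2 and 4. CD43- cells held 6, 8 and 4 at day 6, 20, 12 and 38 at day 9, 7, 13 and 8 at day 12 and 50, 32 and 69 at day 16. CD43+ cells held 68, 2 and 27 at day 6, 16, 70 and 984 at day 9, 4, 2 and 0 at day 12 and 6, 20 and 0 at day 16. Only day 12 and day 16 kept the sorted groups apart, and in the order of the 11 replicated populations no ALB mean separated from the next. The value of 984 in the third day 9 CD43+ replicate was the highest of all 34 samples. ALB was not called raised with AFP, its neighbour, in CD43- cells between any neighbouring days. Its CD43- values nevertheless lay higher at day 9 than at day 6, and higher at day 16 than at day 12, without overlap. The test used 1 spread for all replicated populations, among them day 9 CD43+ cells with values from 16 to 984.

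Day 9 CD43+ replicate 3 was also high for other plasma protein genes. FGA, FGB and FGG, the chains of fibrinogen, were 232, 256 and 163 in it, against 6 and 12, 6 and 16, and 5 and 24 in replicates 1 and 2. APOH was 53 and GC, the vitamin D binding protein, 77, against 0 to 4 in the other 2. APOH was at most 1 and GC at most 2 in every CD43- sample. HP was 466 against 73 and 90, and CP 71 against 3 and 3. Among the 8 genes, APOA1 was 131, APOA2 32, APOB 212 and TTR 16 in this replicate, while AFP at 6, HNF4A at 6 and FOXA2 at 1 were within or below the range of the other 2. VTN was 78 in replicate 3, 5 and 10 in replicates 1 and 2 and 650 to 1333 in day 9 CD43- cells. Markers of other cells were also higher in replicate 3. Summed epithelial markers were 2427, 2313 and 2833 in replicates 1 to 3, endothelial markers 13758, 14239 and 17356, and mesenchymal markers 4272, 8591 and 21969. Replicate 3 was highest for 6 of 10 epithelial, 8 of 10 endothelial and 9 of 10 mesenchymal markers. What set this replicate apart was not tested.

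**Figure D2:**
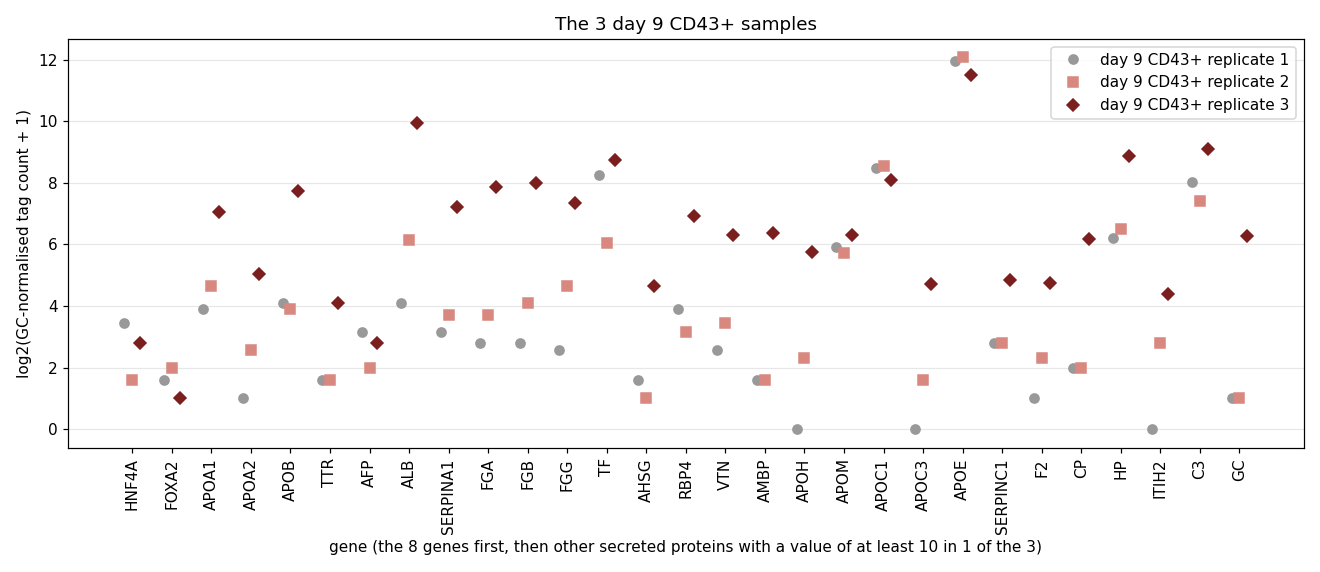
The 3 day 9 CD43+ replicates, as log2(value + 1), for the 8 genes and for those other liver and yolk sac secreted protein genes that reached 10 in 1 of them (x axis). Replicate 3 (dark diamonds) lies above both others for ALB, at 984, and for most other genes shown, and not for AFP, HNF4A or FOXA2, or for APOC1 and APOE.

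The CD43 comparison asks which of the sorted populations, the emerging blood cells or the cells beside them, held these transcripts. At day 6, 7 of the 8 genes were called lower in CD43+ cells, with no overlap between the groups for any of the 7. Of all genes tested, 7.85% were called lower, and 22.9% had 3 CD43+ values below the 3 CD43- values. The fall was 57.6-fold for AFP (log2 fold change -5.85, SE 0.648), 41.8-fold for APOA2, 28.2-fold for HNF4A, 26.2-fold for FOXA2, 25.7-fold for TTR, 19.8-fold for APOA1 and 16.5-fold for APOB. The median over the 8 genes was -4.70, and 0.14 over all genes tested. ALB was 1.40 higher (SE 1.11, adjusted p = 0.310, limma), with overlapping groups.

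At day 9, 7 of the 8 were again called lower, with 12.8% of all genes. AFP was 58.3-fold lower (log2 fold change -5.87, SE 0.648). FOXA2 (-3.63), APOA1 (-3.57), APOB (-3.45), TTR (-3.16), HNF4A (-2.69) and APOA2 (-2.48) had smaller differences. Only 5 of the 7 had groups that did not overlap (28.7% of all genes in that direction), since replicate 3 of the CD43+ cells reached into the CD43- range for APOA2 and APOB. Without that replicate the same comparison gave -3.56 for APOA2, -4.69 for APOB, -4.50 for APOA1, -3.99 for TTR, -5.94 for AFP, -3.37 for FOXA2 and -2.79 for HNF4A, and these 7 genes were still called. ALB went from 2.27 (adjusted p = 0.0754) to 0.66 (adjusted p = 0.602). It was called higher in CD43+ cells without their first replicate (3.59) and with 10 added to each value in place of 1 (2.01, adjusted p = 0.0179, limma). The calls of APOA2 and HNF4A at day 9 were less firm: APOA2 lost its call without the first replicate of CD43- or of CD43+ cells (-1.54 at the smallest), and HNF4A without the first of CD43- or the second of CD43+ cells (-2.18 at the smallest). With 10 added, APOA2 (-1.44), HNF4A (-1.71), TTR (-1.93) and FOXA2 (-1.95) stayed under the 4-fold limit, so 3 of the 8 genes, AFP, APOA1 and APOB, were called lower. With 0.1 added HNF4A had an adjusted p = 0.0815, and in a fit of the day 9 populations alone APOA2 had an adjusted p = 0.0697 (limma).

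At day 12, 6 of the 8 were called lower, with 14.4% of all genes, and 7 had CD43+ values all below the CD43- values, with 26.4% of all genes. The differences of APOB (log2 fold change -6.42, SE 0.685), AFP (-6.25, SE 0.648), TTR (-6.00, SE 0.714) and APOA1 (-5.62, SE 0.587) corresponded to 85.4-, 76.0-, 63.9- and 49.3-fold. APOA2 (-3.51) and FOXA2 (-2.21) were also called, FOXA2 not without the first CD43- replicate (-1.79). HNF4A was low in both groups, at 36, 16 and 3 and at 6, 4 and 11, and was not called (-0.86, SE 0.896, adjusted p = 0.402, limma). ALB was not called either (-2.02, adjusted p = 0.109).

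At day 16 all 8 were called lower, with 13.6% of all genes. The differences were AFP -5.36, APOB -4.99, TTR -4.77, APOA2 -3.94, APOA1 -3.61, ALB -3.22, HNF4A -2.96 and FOXA2 -2.51, and no groups overlapped (32.7% of all genes in that direction). The differences of ALB, HNF4A and FOXA2 rested on low values, with no CD43- sample above 69, 38 and 11. Without the third CD43+ replicate, ALB (-2.02) and HNF4A (-1.90) were no longer called. With 10 added to each value in place of 1, these 3 genes lost their call.

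**Figure D3:**
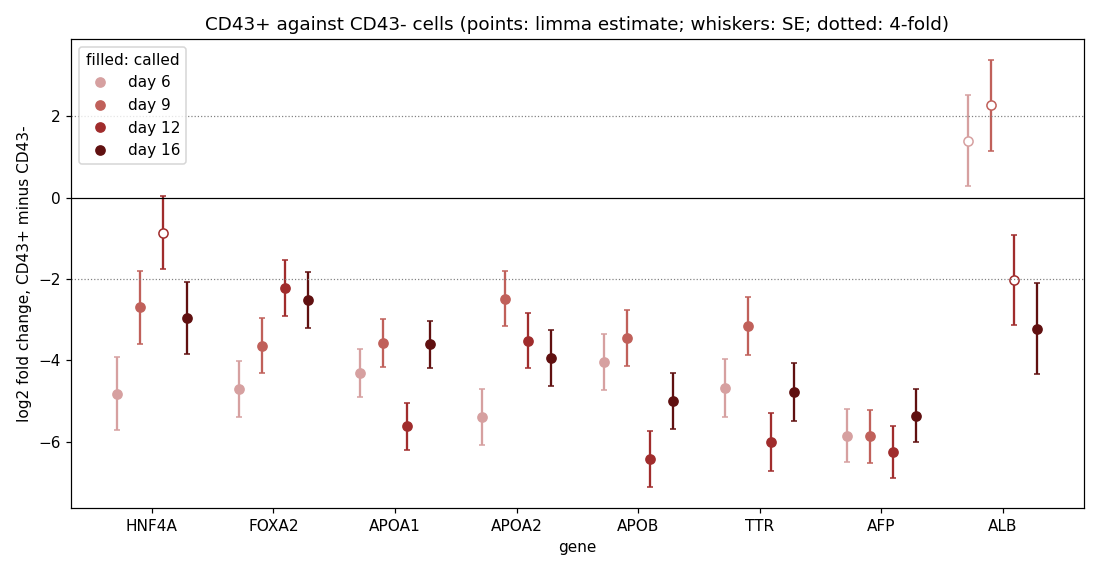
Difference between CD43+ and CD43- cells for each of the 8 genes (x axis) on days 6, 9, 12 and 16, as the limma log2 fold change with its SE (y axis). Filled points were called, open points were not, and dotted lines mark 4-fold. Of the 32 points, 28 are filled and all of these are below 0, from -2.21 for FOXA2 at day 12 to -6.42 for APOB at day 12.

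The change of the CD43 difference between days passed the test for 4 genes, none of them under every alternative. For APOA2 it shrank from day 6 to day 9 by 2.91 (SE 0.963, adjusted p = 0.0351). From day 9 to day 12 it became more negative for APOB (-2.97, SE 0.969, adjusted p = 0.0226), TTR (-2.84, SE 1.01, adjusted p = 0.0365) and ALB (-4.29, SE 1.58, adjusted p = 0.0430, all by limma). Of all genes, 3.21% were called higher in the first of these tests and 4.39% lower in the second. Without replicate 3 of day 9 CD43+ cells none of the 4 was called: the values were 1.82 for APOA2, -1.72 for APOB, -2.005 for TTR and -2.68 for ALB. Over the 12 fits that each left out 1 replicate of the populations involved, the call was lost in 7 for APOA2, 7 for ALB, 6 for TTR and 4 for APOB. In a fit of only the populations involved all 4 were lost, with adjusted p = 0.138 for APOA2, 0.0932 for ALB, 0.163 for APOB and 0.131 for TTR (limma).

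Low values remained in CD43+ cells for most of the 8 genes. The mean in CD43+ cells as a share of that in CD43- cells had a median over the 8 genes of 3.48% at day 6, 11.5% at day 9 (4.71% without replicate 3), 4.51% at day 12 and 7.44% at day 16. At day 16 it was 2.54% for AFP, 3.19% for APOB, 3.72% for TTR, 6.22% for APOA2 and 8.65% for APOA1. The 10 epithelial markers had medians of 4.69% at day 6, 5.71% at day 9, 2.03% at day 12 and 3.44% at day 16. On the same days the 10 mesenchymal markers had 9.20%, 3.38%, 1.24% and 2.21%, and the 10 endothelial markers 37.4%, 11.8%, 11.5% and 11.5%. The highest share of an epithelial marker at day 9 was 36.8%, with EPCAM at 203, 156 and 151 in CD43+ and 590, 284 and 510 in CD43- cells. Epithelial markers summed to 931 to 2128 in day 16 CD43+ samples and to 48963 to 50640 in CD43- samples, with no marker at 0 in all 3 CD43+ samples. The part of CD43- cells or their RNA in the CD43+ values was not tested.

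Before the sort, 5 of the 8 genes were called higher at day 4 than at day 2, where 4.97% of all genes were: HNF4A, APOA1, AFP, APOB (log2 fold change 2.58, SE 0.685) and APOA2 (2.02, SE 0.681). The rise of APOA2 was not called without the third replicate of day 2 or the second of day 4 (1.79 at the smallest), with 10 added (1.21) or with median-of-ratios scaling (1.996). From day 4 to day 6 CD43- cells 4 of the 8 were called higher, TTR, APOB, APOA2 and AFP (2.33, SE 0.648), with 4.94% of all genes. Unsorted cells are compared with sorted cells in that step. From day 6 to day 9 in CD43- cells, APOA2 was called lower, with 0.657% of all genes. The estimates of HNF4A, APOB, TTR, APOA1 and FOXA2 were negative too, from -2.39 to -1.90, and were not called. AFP alone was called higher from day 9 to day 12 (4.52% of all genes), and APOA2 and TTR from day 12 to day 16 (4.46%). The sort at day 16 also used CD45, so day and sort cannot be told apart in any step from day 12 to day 16.

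In CD43+ cells, AFP, APOA1 (log2 fold change -3.10), HNF4A and FOXA2 were called lower at day 6 than in unsorted day 4 cells, with 7.73% of all genes, and TTR (2.26) higher, with 6.80%, at values of 6, 6 and 8 against 0, 3 and 0. The call of TTR was lost without the first or the third replicate of day 4 (1.93) and with 10 added (0.61). From day 9 to day 12, ALB (-5.42, SE 1.11) was called lower, with 6.54% of all genes, and still was without the third day 9 replicate (-3.82). From day 12 to day 16, AFP (2.57), APOA1 (2.84) and TTR (3.89) were called higher, with 3.79% of all genes. This call of TTR rested on values of 44, 28 and 14 against 1, 2 and 0, and was lost with 10 added (1.74).

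Among 21 tested genes of the list of other liver and yolk sac secreted proteins, 10 were called lower and none higher in CD43+ cells at day 6, 5 and 3 at day 9, 11 and 2 at day 12 and 12 and 2 at day 16. Of all genes, 7.85%, 12.8%, 14.4% and 13.6% were called lower on these days. The median log2 fold change was -1.95 at day 6, -0.36 at day 9 and -3.37 at day 16, and 0.14 over all genes on days 6 and 16. Day 9 turned on the third CD43+ replicate: without it 20 genes were tested, 8 were called lower and none higher, with a median of -1.74. The mean in CD43+ cells as a share of that in CD43- cells had a median of 164% over the list at day 9, and of 34.1% without that replicate. The calls of HP (2.06) and TF (1.61) as higher at day 9 did not hold without it. At day 6 the largest falls were F2, prothrombin (-5.22), RBP4 (-5.22) and FGB (-5.13). VTN, vitronectin, had the largest fall at day 9 (-5.59) and day 16 (-5.30). AHSG, fetuin A, was called lower on all 4 days and was 1523, 908 and 1358 in day 16 CD43- cells. HP, haptoglobin, which myeloid cells also make, went the other way, with called differences of 2.90, 7.74 and 6.63 at days 9, 12 and 16. It was 3400, 3035 and 3722 in day 12 CD43+ cells and 8, 8 and 48 in CD43- cells. SERPINA1, made by liver and by myeloid cells, was 1837, 1451 and 3527 in day 16 CD43+ cells and 2478, 1478 and 2165 in CD43- cells.

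From day 4 to day 6 in CD43- cells, 10 of these 21 genes were called higher and none lower, against 4.94% of all genes called higher, with SERPINA1 (6.31), RBP4 (5.22) and AHSG (5.05) the largest. APOC2, which activates lipoprotein lipase, was called higher in CD43+ cells at days 12 (3.70) and 16 (2.91). TF, transferrin, was called higher in CD43+ cells at day 9 (2.14) and lower at days 12 (-3.29) and 16 (-3.54).

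The 3 CD43- replicates of a day differed for most of the 8 genes at once. At day 6, replicate 1 was lowest for 7 of the 8 and replicate 3 highest for 7 of the 8. Over all genes, replicate 1 was lowest for 33.2% and replicate 3 highest for 38.8%. In the same samples replicate 1 was highest for 9 of 10 endothelial markers and replicate 3 lowest for 10 of 10. Summed endothelial markers ranged from 37437 to 121492 over the 3 samples, and replicate 1 was lowest for 9 of 10 epithelial markers. Replicate 2 was highest for 6 of these epithelial markers and replicate 3 for 3. At day 9, replicate 1 was highest for 7 of the 8 genes and for 10 of 10 endothelial markers, and replicate 3 was lowest for 7 of the 8. Over all genes, day 9 replicate 1 was highest for 25.1% and replicate 3 lowest for 27.3%. The epithelial markers did not share this order: day 9 replicate 1 was highest for 3 of 10, and replicate 2 was lowest for 6. At day 12, replicate 2 was highest for 6 of the 8 genes, against 32.5% of all genes, while replicate 1 was highest for 7 of 10 epithelial markers. At day 16, replicate 2 was lowest for all 8 genes and for 7 of 10 epithelial markers, against 32.2% of all genes. The part of differing cell mixtures in these values was not tested.

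**Figure D4:**
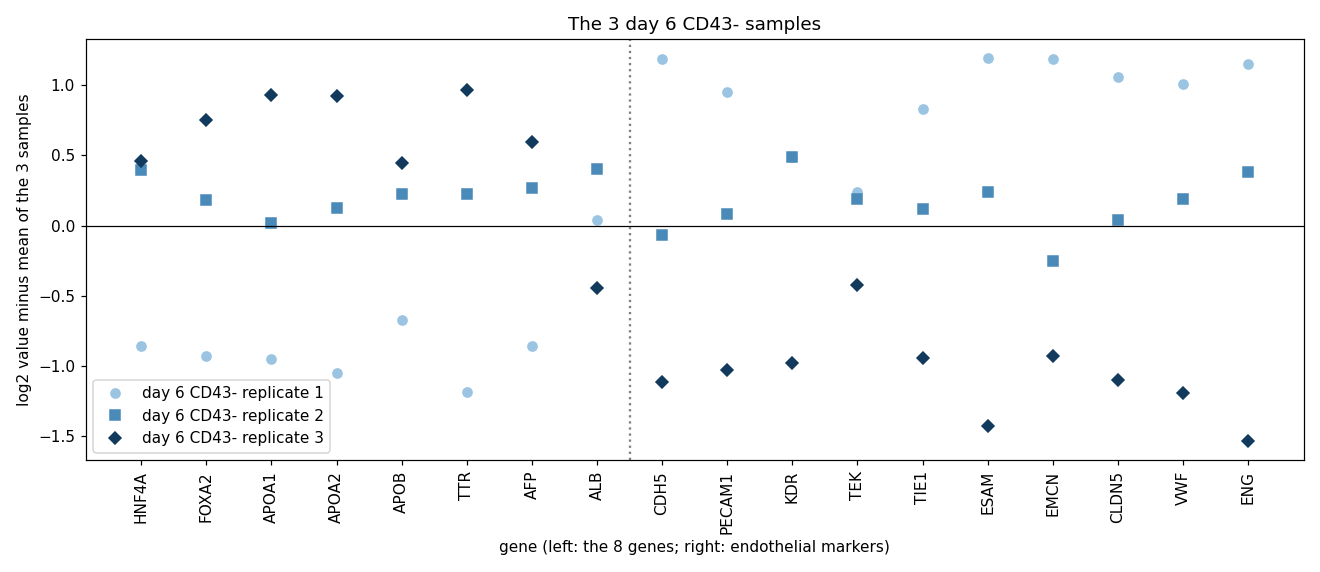
The 3 day 6 CD43- replicates for the 8 genes (left) and 10 endothelial markers (right), as log2(value + 1) minus the mean of the 3 (y axis). Replicate 1 (light circles) is lowest for 7 of the 8 genes and highest for 9 of the endothelial markers, and replicate 3 (dark diamonds) is lowest for all 10 of the latter.

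Likeness of course was described over the 12 population means of log2(value + 1), as Pearson's r with no test. The populations share a cell line and neighbouring days, so the points are not independent. APOA1 and APOA2 were most alike of the 8 (r = 0.937), followed by APOA2 and TTR (0.893). HNF4A was closer to APOA1 (0.860) than to AFP (0.461), and FOXA2 closer to HNF4A (0.694) than to any other. ALB had values from -0.26 to 0.35 with the other 7.

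Over 16323 protein-coding genes, those most like HNF4A were ANGPT2 (r = 0.950), IHH (0.938), TMEM88 (0.933), AKAP4 (0.925) and HABP2 (0.921). IHH, a signalling protein, averaged 132 at day 4 and, at day 6, 186 in CD43- and 7.67 in CD43+ cells. Those most like APOA1 were HOXC6 (0.957), LRRC32 (0.956), SLC39A2 (0.952), BNC1 (0.950) and MAB21L2 (0.950). Those most like AFP were HACE1 (0.962), RCN3 (0.962), CASC4 (0.953), GRIN3B (0.947) and PPARA (0.944), none of them a secreted plasma protein. PPARA, a nuclear receptor of lipid metabolism, averaged 435 in CD43- and 221 in CD43+ cells of day 6, and 1361 and 451 in those of day 16. Pearson's r takes no account of the size of a change. HACE1 averaged 598 in CD43- and 424 in CD43+ cells of day 6, where AFP averaged 320 and 4.67.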

How the data were processed

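The 34 samples are those of the series labels, grouped by day and by the CD43 sort. The authors sequenced RNA with Illumina protocols, quantified it with RSEM and Bowtie2 against an Ensembl annotation (hg38; the submitters' processing notes also name STAR 2.7 and bcl2fastq) and normalized it for GC content within and between samples with EDASeq. The deposited values, whole numbers, are GC-normalized tag counts, treated as a normalized score and not as raw counts or CPM: every sample held the same sorted values with a sum of 17856940. The deposited GC percent of each gene was not used in any test. Library depth is not known, and per the study's methods RNA was sequenced by 2 providers. Which samples went to which provider is not given in the sources used here, so provider and group cannot be told apart.

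The scale of all tests was log2(value + 1). A linear model per gene of the 33 replicated samples was made with limma 3.58.1 under R 4.3.3, with a variance trend in eBayes; tables were made with Python 3.11.15, pandas 2.3.3 and numpy 2.4.6. Genes had to reach a value of 10 in 3 or more samples (19788 did, 467 did not). There were 14 comparisons and 3 changes of the CD43 difference. Adjusted p-values are Benjamini-Hochberg values over all genes tested. The undifferentiated sample, without replicate, entered no test. The study's methods call the replicates independent biological ones, and the labels do not say what separates them, so p-values measure the spread between these samples.

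The 8 genes and all gene lists were chosen with earlier results of these data known. Genes named are the 8, the sort markers SPN and PTPRC, from the lists those with the largest called changes, the 5 protein-coding genes most like AFP, APOA1 and HNF4A, and neighbours within 100000 bases. APOH, GC, CP, FGG, APOC1 and APOE were named after their values were seen, and the lists set beside the replicate orders were picked then too. NR1H4, AFM, TTPA and CGB5 of the lists had no row in the table. Promoter windows of 250 bases are from RefSeq (GRCh38.p14); gene coordinates are those of the deposited table.

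Alternatives were pseudocounts of 0.1 and 10, no filter or one at 100, median-of-ratios scaling, robust variances, a replicate block, separate fits of the populations under comparison, a 2-fold limit and leaving out each replicate. Quantile normalization returned the deposited values (largest difference 0), so it tested nothing. A block within day 6 and the lists at day 9 without the third CD43+ replicate were added after the data were seen. Between CD43- and CD43+ samples of the same number, deviations from the population mean correlated by 0.198, 0.109 and 0.199 on day 6, all over 0.1. On later days they correlated by at most 0.108, with at least 1 pair under 0.1 on each. By that limit, numbers were read as pairing samples on day 6 alone. On day 12, as on day 6, each CD43+ sample correlated most with the CD43- sample of its own number. A block within day 12 was not tested. The model was tested on simulated data before use.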

Additional observations from a re-analysis of the deposited data

Results flagged for a closer look

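Tests of the change of the CD43 difference between neighbouring days singled out 4 of the 8 genes. For APOA2 the difference between CD43+ and CD43- cells changed by 2.91 on the log2 scale from day 6 to day 9 (adjusted p = 0.0351, limma). From day 9 to day 12 it changed by -4.29 for ALB (adjusted p = 0.0430), by -2.97 for APOB (adjusted p = 0.0226) and by -2.84 for TTR (adjusted p = 0.0365, all by limma). Each of the 4 involves day 9, and without the third replicate of day 9 CD43+ cells their adjusted p-values were 0.136, 0.176, 0.0938 and 0.139, in the same order. Of the 12 fits that each left out 1 replicate, 7, 7, 4 and 6 lost the call, and in a fit of only the populations involved all 4 lost it, with adjusted p = 0.138, 0.0932, 0.163 and 0.131 (limma).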

How the results depend on the processing

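Depth is unknown, low values such as those of TTR before day 6 or FOXA2 after day 9 are the least certain, and no fold change of a called gene or of the CD43 comparisons changed sign under any alternative. Quantile normalization changed no value and is no test. Of the 75 other changes, none called, 44 results by setting changed sign and 37 became called. The number of the 8 genes called was within 1.5 times the main number except as follows. With 10 added it was 4 at day 9 (7 in the main analysis), of which 3 were lower and ALB was higher, and 5 at day 16 (8) for CD43+ against CD43- cells, 0 for day 2 against day 0 (1), 3 for day 4 against day 2 (5), and for CD43- cells 3 between days 6 and 9 (1) and 1 between days 12 and 16 (2). With 0.1 added it was 1 for CD43- cells from day 12 to day 16, and, for the changed CD43 difference, 0 between days 6 and 9 (1) and 1 between days 9 and 12 (3). A value of at least 100 gave 2 for CD43- cells from day 6 to day 9 and 1 for CD43+ cells from day 9 to day 12 (2), and a fold change above 2 gave 2 for CD43- cells between days 6 and 9 and between days 9 and 12 (1). A fit of only the populations compared gave 0 for day 2 against day 0, for CD43- cells from day 6 to day 9 and for the changed CD43 difference between days 6 and 9 and days 9 and 12, and 1 for that between days 12 and 16 (0). The cause was not tested.

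Leaving out 1 replicate gave 7 genes at day 6, 5 to 7 at day 9, 5 to 6 at day 12 and 6 to 8 at day 16 for CD43+ against CD43- cells. It gave 0 to 1 for day 2 against day 0, 4 to 6 for day 4 against day 2, 4 for CD43- cells from day 4 to day 6, 0 to 5 between days 6 and 9, 1 to 2 between days 9 and 12 and 1 to 3 between days 12 and 16. For CD43+ cells from day 6 to day 9 it gave 0 to 2, and for the changed CD43 difference 0 to 1 between days 6 and 9 and 0 to 4 between days 9 and 12. Over all genes, a fold change above 2 called 5369 genes at day 6 (2480), 8240 at day 9 (4253), 8985 at day 12 (5176) and 8977 at day 16 (5101), and with 10 added 1458 were called at day 6 and 2731 at day 9.

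With the replicate block, the replicate number as a term, 7 of the 8 genes were called at day 6, and ALB lost its call for the change from day 9 to day 12 (adjusted p = 0.0525, -4.29 unchanged, limma). With a replicate block within the day 6 populations only, 7 genes were called and AFP had an adjusted p = 0.000100 (limma). Neither block changed any other call among the 8 genes. The replicate block used the same replicate term for every day, so it could not test pairing of CD43+ with CD43- samples within a day. Such pairing was tested for day 6 alone, and not for the later days.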
